A study of Mus musculus with 4 samples.

Results

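The cytosolic ribosomal protein genes encode the proteins of the ribosome that translates nuclear mRNAs. They were taken as the RefSeq accessions on the array whose gene symbol is Rpl or Rps with a number (with or without a final a, x or y), Rplp0, Rplp1, Rplp2 or Rpsa. The Rps6k kinases and the pseudogenes were left out, and the brightest probe stood for each gene. The rule found 76 genes of 25842 genes and accessions with a probe, 46 of the large and 30 of the small subunit. All 76 were well above background on all 4 arrays, so that none was lost to the filter that left 19068 features for testing.

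The mRNA was measured in whole brains of offspring on postnatal day 1 (strain C57BL/6 by the sample labels, from C57BL/6J dams by the protocol), after the dams had received titanium dioxide nanoparticles or vehicle into the trachea during pregnancy. TiO2-H dams received 100 μg per mouse in 25 μL, and Sham dams the same volume of vehicle. The day of exposure was 10.5 of gestation by the protocol and 14 by the titles of the samples. RNA from 2 offspring of each of 5 Sham dams, or of each of 6 TiO2-H dams, was pooled by sex, and each pool was hybridized to 1 one-colour array. The 4 groups, males and females of Sham and of TiO2-H, thus have 1 array each and no replicate. All arrays shared 1 slide, the Sham pair in row 1 (columns 3 and 4) and the TiO2-H pair in row 2 (columns 1 and 2). The place on the slide and the exposure thus cannot be told apart. Probes of Xist, Ddx3y, Uty and Eif2s3y, 6 in all, fitted the sex labels of the Sham arrays and went against those of the TiO2-H arrays. For this reason the TiO2-H arrays are named by their label only. In pooled whole brain, fewer cells of a type and less RNA per cell cannot be told apart.

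Ribosomes are built in the nucleolus from ribosomal RNA and one copy of nearly every ribosomal protein, so that the proteins are needed in about equal amounts. Many of their mRNAs start with a C followed by a run of pyrimidines, the 5′ terminal oligopyrimidine tract, through which mTOR and Larp1 control their translation. In the newborn brain, ribosome production serves dividing progenitors and growing neurons. An array reports the mRNA and not its translation.

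The start of the gene is shown for several members, since this tract is the sequence feature the family is known for. The promoter table of RefSeq (GRCm38.p6) held 56 of the 76 genes. The windows run from 15 bases before the annotated start to 15 bases from it. Capitals mark the C at the annotated start and the pyrimidines that follow it, where there are at least 4. The first 5 genes have such a start and the last 4 do not.

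Rps21: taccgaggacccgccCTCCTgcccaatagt
Rps27: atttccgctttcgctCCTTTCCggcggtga
Rps6: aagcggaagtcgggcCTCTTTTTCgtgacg
Rplp2: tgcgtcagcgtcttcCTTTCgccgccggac
Rpl38: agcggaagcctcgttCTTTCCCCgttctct
Rps3: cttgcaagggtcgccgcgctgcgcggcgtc
Rps4x: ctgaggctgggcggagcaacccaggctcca
Rpl10: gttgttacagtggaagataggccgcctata
Rpl23: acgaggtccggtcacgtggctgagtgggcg

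These windows lie at chr2:180257364-180257393 (plus strand) for Rps21, chr3:90213634-90213663 (minus strand) for Rps27, chr4:86857353-86857382 (minus strand) for Rps6, chr7:141447636-141447665 (plus strand) for Rplp2, chr11:114668565-114668594 (plus strand) for Rpl38, chr7:99483695-99483724 (minus strand) for Rps3, chrX:102189377-102189406 (minus strand) for Rps4x, chrX:74270801-74270830 (plus strand) for Rpl10 and chr11:97782425-97782454 (minus strand) for Rpl23. An annotated start can lie some bases from the one used in brain, so that a window without capitals says only that the tract does not begin at the annotated base. A pyrimidine start was found in 13 of the 56 members (23.2%), against 3.01% of the 27025 genes in the table. Over the whole 300-base entries (250 bases before the start and 50 from it), read on both strands, CCGGAAG stood in 23 of 56 members and in 9.93% of all genes. TCTCGCGA stood in 10 members and in 1.13% of all genes, GGGCGG in 34 members and in 38.2% of all genes, and TATAAA in 6 members and in 15.7% of all genes. A match describes letters and not a bound factor.

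None of the 76 genes reached 1.5-fold or 0.67-fold between TiO2-H and Sham under either sex label, and none reached 1.2-fold in either direction. The background was 5.14% of 18224 features past the threshold for the arrays labelled male and 4.24% of 18499 for those labelled female. Between the 2 Sham arrays 4.31% of 17754 features and again 0 members passed it. On log2 signal scaled to the 75th percentile of each array, the member differences (TiO2-H minus Sham) ran from -0.21 to 0.088 for the arrays labelled male, with a median of -0.094. For the arrays labelled female they ran from -0.18 to 0.11, with a median of -0.052. The medians over all features compared were 0.0077 and 0.013. The sign of both member medians turned without scaling, to 0.0043 and 0.079, where the medians over all features were 0.11 and 0.14.

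**Figure D1:**
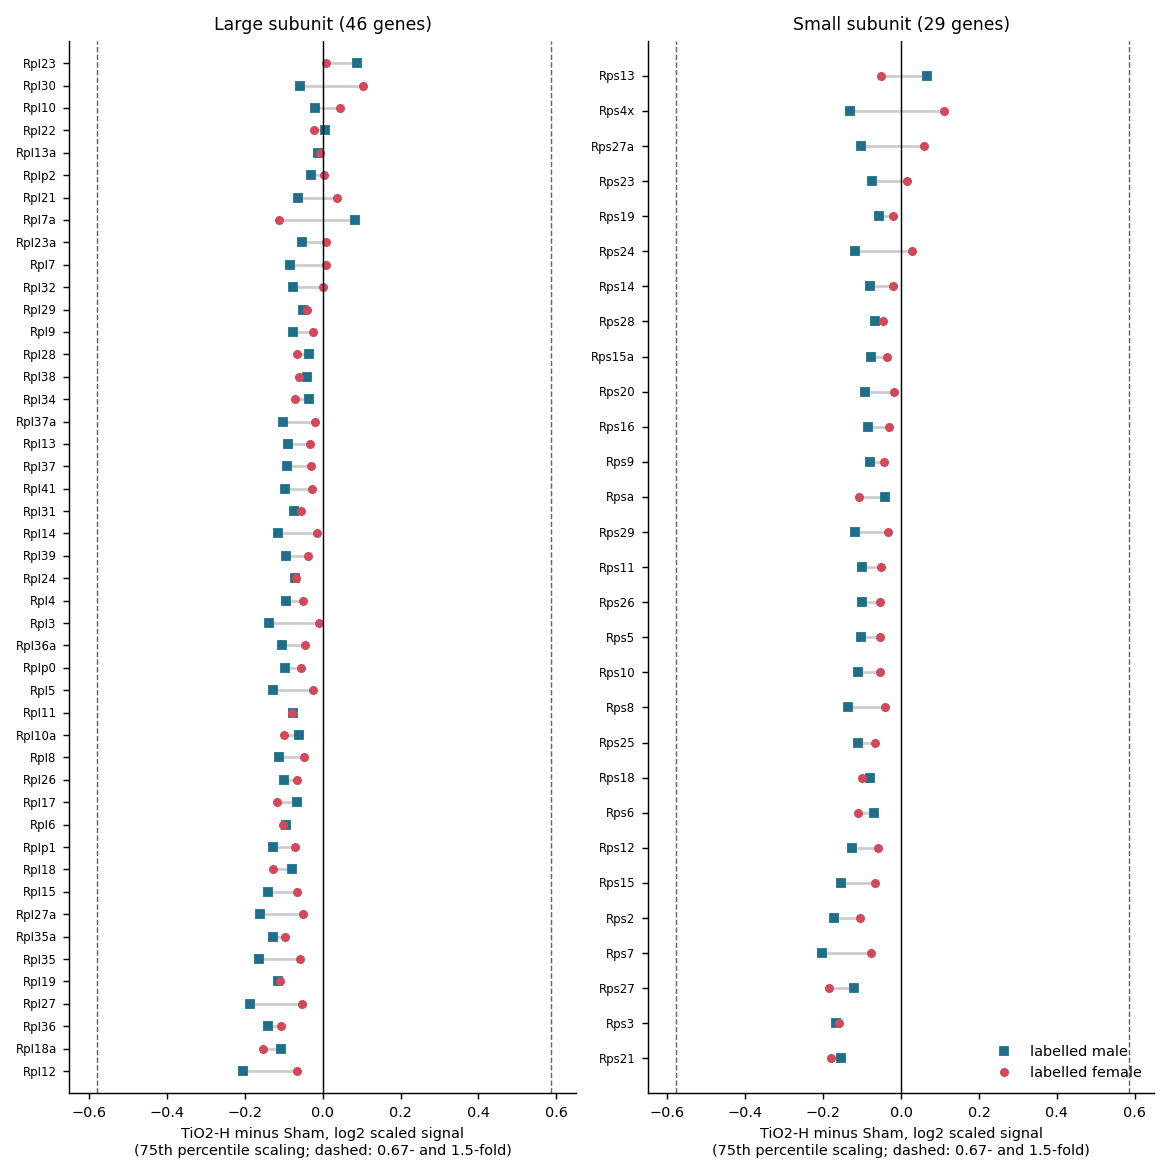
Each row is 1 of 75 of the genes, with the log2 difference TiO2-H minus Sham of the arrays labelled male (squares) and labelled female (circles), each from 1 array a side. All points lie between the dashed lines at 0.67-fold and 1.5-fold, and most lie below 0 on this 75th percentile scale, whereas without scaling 42 of all 76 genes are above 0 in both.

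The values of the family lay close together. Over the 76 genes the interquartile range of the difference was 0.054 for the arrays labelled male and 0.048 for those labelled female, against 0.19 in both for the 16778 features well above background on all 4 arrays. Most features are dimmer. The quartiles of the mean difference were -0.091 and -0.049 for the members and -0.080 and 0.11 for all features tested. For 700 other features within the members' range of brightness, described below, they were -0.069 and 0.022. Bright features outside the family thus also lay closer together than all features. Between the 2 Sham arrays (female minus male) the interquartile range was 0.063 for the members and 0.12 for the 16778 features. Between the arrays labelled TiO2-H female and TiO2-H male it was 0.040 for the members and 0.11 for the 16778 features. These ranges were not computed for the 700 bright features. The Sham arrays differed by a member median of -0.021, and those of TiO2-H by 0.015. The software's own error of a log2 ratio was the same 0.20 for each member under both labels, and so not a spread measured gene by gene. Repeat spots of 1 Rpl23 probe had a smaller SD, 0.057 to 0.088 (log2) within an array. Of the 152 member differences 1 exceeded the software's error. That was Rpl12, a protein of the stalk base, at -0.21 for the arrays labelled male, named after its value was seen.

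On this scale, both TiO2-H values lay below both Sham values for 60 of the 76 genes, against 26.5% of all features, but without scaling this held for 3 genes (6.84% of all features) and 39 had both TiO2-H values above (59.6% of all features). On the 75th percentile scale both TiO2-H values lay above both Sham values for 1 gene, Rpl23, against 28.9% of all features, and for 15 genes the values overlapped. The count of 60 fell to 33 after quantile normalization, to 36 after cyclic loess and to 29 when the arrays were scaled to spike-in controls, an alternative chosen after seeing the data. Of all features, 27.5%, 28.6% and 16.7% lay below under these settings. In limma, 2 TiO2-H against 2 Sham arrays, 0 members and 0 of all 19068 features (0%) had an adjusted p under 0.05. The member adjusted p ran from 0.278 to 0.979. At an unadjusted p under 0.05 in limma, 8 members were lower and 0 higher in TiO2-H, against 6.26% and 10.4% of all features. In either direction, the count was 1 member without scaling, after quantile normalization or after cyclic loess, and 0 with spike-in scaling. The shares of all features at this p under these settings were not counted, so that whether the fall is particular to the members cannot be told. With 2 arrays a side, the smallest two-sided p of an exact permutation test is 0.333.

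Set against the median of all features, the member median was lower under each scaling tried. The gap was -0.10 for the arrays labelled male and -0.064 for those labelled female when each array was moved by 1 constant (75th percentile, median, spike-in or no scaling). A constant moves both medians alike, so that the choice among these scalings could not change the gap. It was -0.096 and -0.051 with the normexp background correction, -0.037 and -0.027 after quantile normalization, and -0.028 and -0.025 after cyclic loess. The last 2 methods also remove differences that depend on brightness, and the member probes are bright, with processed signals between 27448 and 266591. The 700 other tested features whose mean signal lay within the range of the members, a set chosen after seeing the data, were dimmer on the median (46917 against 113900) and had medians of -0.045 and -0.014 on the 75th percentile scale, and 43.6% of them had both TiO2-H values below both Sham values. The share of brightness in the member difference was not tested further.

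**Figure D2:**
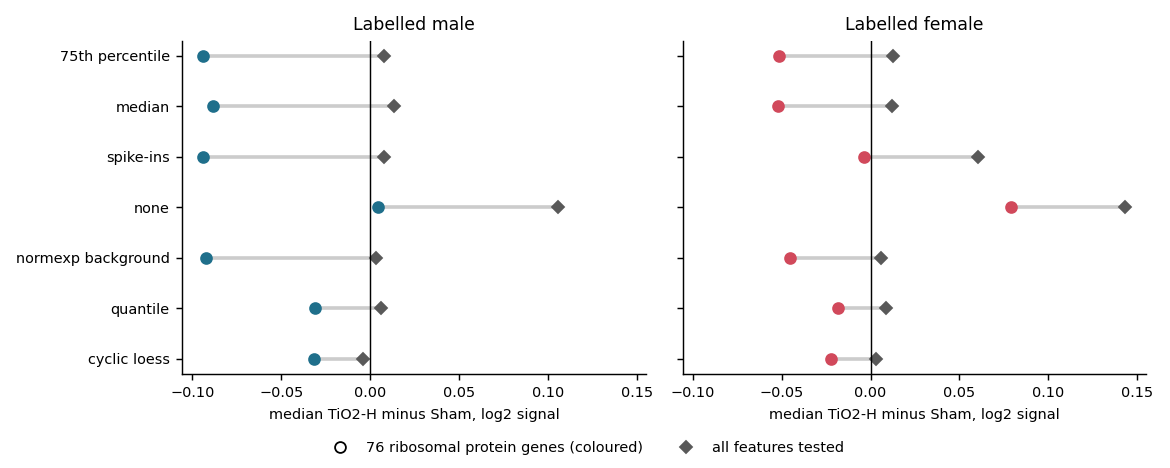
Median log2 difference, TiO2-H minus Sham, of the 76 genes (circles) and of all features tested (diamonds) under 7 ways of scaling or background correction, for the arrays labelled male and labelled female. The circles lie left of the diamonds in every row, but the circles lie right of 0 without scaling.

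**Figure D3:**
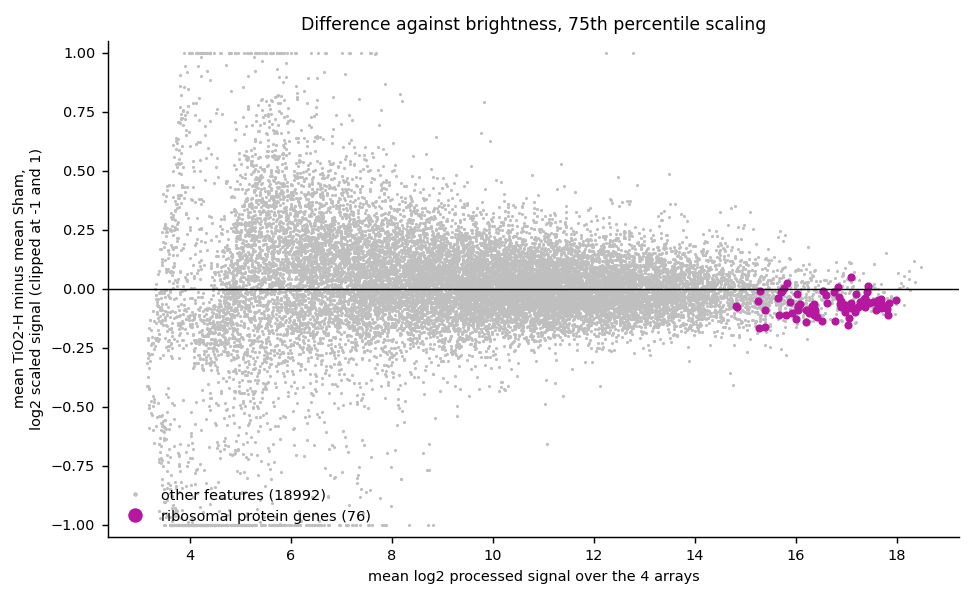
Mean TiO2-H minus mean Sham (log2 scaled signal) against the mean log2 processed signal over the 4 arrays, for the 76 genes and the other 18992 tested features, clipped at -1 and 1. The genes sit at the bright end, between -0.17 and 0.049 on the 75th percentile scale, and their median turns to 0.041 without scaling.

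The 5 lowest mean differences on the 75th percentile scale all belonged to small subunit genes. In the sentences that follow, the 4 values of a gene are log2 processed signals above the 75th percentile of their own array, for Sham male, Sham female and the arrays labelled TiO2-H male and TiO2-H female, in that order. Without scaling each mean difference is higher by 0.11. Rps21, a protein of the small subunit, read 5.61, 5.68, 5.46 and 5.50, a mean difference of -0.17 (SE 0.047). Rps3, at the mRNA entry of the small subunit, read 5.78, 5.75, 5.61 and 5.59, a difference of -0.16 (SE 0.038, limma adjusted p = 0.278). The 2 Sham values of each gene lay above its 2 TiO2-H values.

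Rps27, a zinc-finger protein of the small subunit, read 7.39, 7.43, 7.27 and 7.24, a mean difference of -0.15. Rps7, which takes part in ribosomal RNA processing and can bind Mdm2, read 6.60, 6.51, 6.39 and 6.43, a mean difference of -0.14. Rps2, of the mRNA entry channel, read 6.90, 6.84, 6.73 and 6.73, a mean difference of -0.14. In all 3 genes the groups did not overlap. Without scaling the differences under the male and the female label were -0.11 and 0.053 for Rps7 and -0.074 and 0.024 for Rps2. The sign in Rps7 and Rps2 then depended on the label. Those of Rps27 were -0.022 and -0.054.

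At the other end stood Rpl23, a large subunit protein that can bind Mdm2, with 7.31, 7.39, 7.40 and 7.40 and a mean difference of 0.049. Rpl30 read 6.14, 6.07, 6.09 and 6.17, a mean difference of 0.023. Rps13 read 7.09, 7.15, 7.15 and 7.10, a mean difference of 0.0068. Rpl23 alone had both TiO2-H values above both Sham values, and in Rpl30 and Rps13 the groups overlapped. A further probe of Rpl23, spotted 10 times on each array, gave a mean difference of 0.034, with an SD of single spots of 0.063, 0.088, 0.064 and 0.057 (log2).

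The stalk of the large subunit, which recruits translation factors, is made of Rplp0, Rplp1 and Rplp2. Rplp0, long used as a reference gene, read 8.11, 8.10, 8.01 and 8.04, with differences of -0.096 and -0.055 for the arrays labelled male and labelled female. Rplp1 read 7.35, 7.27, 7.22 and 7.20, with differences of -0.13 and -0.070. Rplp2 read 7.73, 7.67, 7.70 and 7.67, with differences of -0.029 and 0.0045. The groups were apart in Rplp0 and Rplp1 and overlapped in Rplp2, and the 3 limma adjusted p were 0.389, 0.379 and 0.89.

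Rpl5 and Rpl11 bind the smallest ribosomal RNA and, outside the ribosome, Mdm2, the ligase that degrades p53. Rpl5 read 5.20, 5.11, 5.08 and 5.08, and Rpl11 read 7.69, 7.69, 7.61 and 7.62. Their mean differences were -0.077 and -0.077, with no overlap between groups and limma adjusted p of 0.478 and 0.366. Rpl3, next to the peptidyl transferase centre, read 6.70, 6.59, 6.56 and 6.58, so that its array labelled TiO2-H female lay 0.010 below Sham female and its Sham arrays lay 0.11 apart. For Rpl3 the Sham-to-Sham difference thus was larger than the exposure difference under the female label.

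Rps6, the substrate of the S6 kinases through which mTOR acts, read 6.55, 6.53, 6.48 and 6.42, with differences of -0.069 and -0.11 under the male and female labels. Rps19, linked to Diamond-Blackfan anaemia in humans, read 5.96, 5.94, 5.91 and 5.92, with differences of -0.056 and -0.020. Rpsa, also known as the laminin receptor, had processed signals before scaling of 200226, 203241, 208371 and 206581, with scaled differences of -0.041 and -0.11. The groups did not overlap in these 3 genes, and their limma adjusted p were 0.379, 0.606 and 0.417.

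Rpl38, required for translation of Hox mRNAs in the embryo, read 7.72, 7.70, 7.68 and 7.64, a mean difference of -0.051. Rpl22, an RNA-binding protein of the large subunit, read 5.58, 5.61, 5.58 and 5.58, a mean difference of -0.0089. Rpl41, a very short basic peptide, read 8.20, 8.13, 8.10 and 8.11, a mean difference of -0.061. The groups overlapped in Rpl22 and not in Rpl38 and Rpl41.

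Of the X-linked members, Rps4x, a small subunit protein whose human counterpart has a copy on the Y chromosome, varied most between labels. Its processed signals before scaling were 56791, 48375, 55466 and 57138, and its differences were -0.13 for the arrays labelled male and 0.11 for those labelled female. The Sham female value lay 0.20 below Sham male, so that the spread within Sham exceeded either exposure difference. Rpl10, which joins the large subunit last, read 7.73, 7.72, 7.71 and 7.76, with differences of -0.020 and 0.044. Rpl36a read 5.14, 5.14, 5.04 and 5.10, with -0.10 and -0.046, and Rpl39, a short protein of the exit tunnel, read 6.43, 6.39, 6.34 and 6.35, with -0.095 and -0.037. The groups overlapped in Rps4x and Rpl10 and did not overlap in Rpl36a and Rpl39.

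The median mean difference was -0.068 for the 46 large and -0.077 for the 30 small subunit genes on the 75th percentile scale, and both turn positive without scaling. The 13 genes with a pyrimidine start had a median of -0.090 (from -0.17 to -0.012), and the 43 with another start -0.071 (from -0.16 to 0.049), so that the ranges overlapped. The 20 genes without an entry had a median of -0.065. Across the 76 genes the differences under the male and the female label correlated with Pearson's r = 0.21 and Spearman's rho = 0.26, as a description, since the genes share the 4 arrays and are not independent replicates.

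A gene's own probes did not all give one value. The array held 164 probes of the 76 genes, up to 7 for a gene (Rpl17), and 162 of them were well above background on all 4 arrays. For the 50 genes with at least 2 such probes the median gap between the highest and the lowest mean difference was 0.056, and the gap was over 0.1 for 10 genes. In Rps27a, a ubiquitin-ribosomal protein fusion, the brightest probe read 7.52, 7.46, 7.42 and 7.51, with differences of -0.10 and 0.059. A dim probe to another accession of Rps27a had processed signals of 161, 114, 104 and 108 and differences of -0.72 and -0.20. That probe was the only one of the 162 past the threshold, under the male label, and its Sham arrays differed by -0.47.

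In Rpsa, the dimmest of 4 probes had processed signals of 254, 224, 208 and 206 and differences of -0.38 and -0.25, beside -0.041 and -0.11 for the brightest. In Rpl15, a large subunit protein, the brightest probe gave -0.14 and -0.065 and the second probe 0.12 and 0.18, so that the sign depended on the probe. Ribosomal protein genes have many processed pseudogenes, and which copies a probe also binds was not tested.

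**Figure D4:**
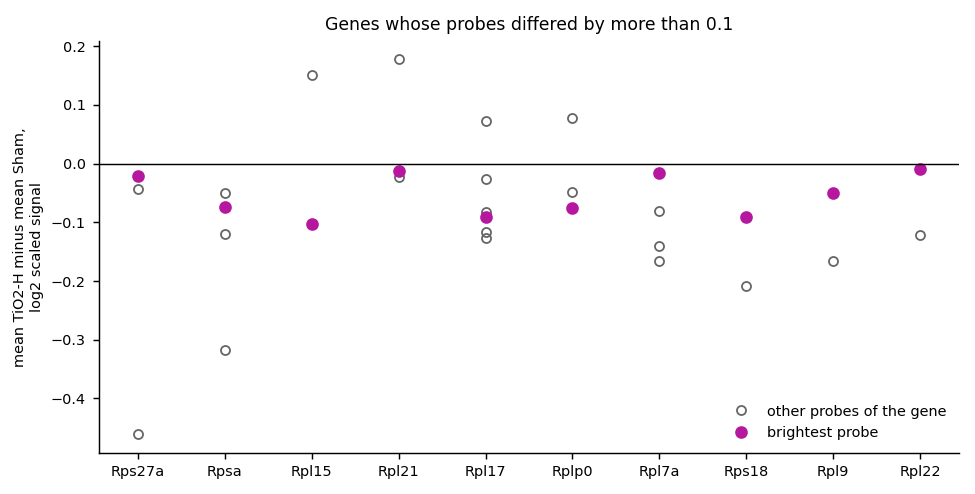
Mean TiO2-H minus mean Sham (log2 scaled signal) of each probe well above background on all 4 arrays, for the 10 genes whose probes differed by more than 0.1; filled circles are the brightest probes. Probes of Rpl15, Rpl21, Rpl17 and Rplp0 fall on both sides of 0 on the 75th percentile scale.

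Other genes of the same machinery were followed by lists, whose medians of the mean difference (TiO2-H minus Sham) are on the 75th percentile scale, beside 0.0064 over all features. Without scaling each value is higher by 0.11, which turns the median of each list named here positive except that of the erythroid markers. The 4 ribosomal proteins under other symbols had a median of -0.093, and all 4 had both TiO2-H values below both Sham values. Rps3a1 had the lowest difference, -0.13, and Fau, fused to a ubiquitin-like protein, the highest, -0.048. Of 8 paralogs outside the rule 5 were well above background on all 4 arrays, with a median of -0.0085. Of these Rps27l, a p53 target, was at -0.18 and Rps4l at -0.11, both with no overlap between groups, and Rpl36al (0.00027) and Rpl7l1 (-0.00011) had the highest values. Rpl39l, a copy known from male germ cells, had processed signals of 8.17, 131, 11.9 and 10.6, of which the Sham female value alone was well above background, so that it is left out of this median.

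Of 45 translation factors 22 had both TiO2-H values below and 11 above both Sham values, with a median of -0.048. These counts and those of the lists that follow stand beside 26.5% below and 28.9% above over all features. Eif2s1, the regulated subunit of an initiation factor, was the highest at 0.21 and Eif3a followed at 0.17, while Eif4a3, of the exon junction complex, was the lowest at -0.15 and the elongation factor Eef2 followed at -0.14. Of 53 tested ribosome biogenesis genes 24 were below and 8 above, with a median of -0.059. Ltv1 and Wdr12, assembly factors of the small and the large subunit, were at 0.22 and 0.18, and Utp20 and Nob1, which process ribosomal RNA, at -0.28 and -0.24. Of 77 tested mitochondrial ribosomal proteins, which build another ribosome, 37 were below and 13 above, with a median of -0.042. Mrpl10 (-0.39) and Mrpl1 (-0.36) had the lowest values and Mrps25 (0.15) and Mrps15 (0.10) the highest. Sham male alone stood apart in Mrpl10, with processed signals of 2963, 1839, 1963 and 1898, and its difference under the female label was -0.085. In Mrpl1 the 2 Sham arrays differed by 0.37, as much as its mean difference.

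Of 21 genes of growth signalling to ribosomes 8 were below and 2 above, with a median of -0.010. Rictor, of the second mTOR complex, was the highest at 0.23 and Rps6ka6 followed at 0.074, and Tsc2, which restrains mTOR, was the lowest at -0.26, before Myc at -0.11. Of the 6 host RNAs of small nucleolar RNAs with a probe 4 were below and 2 above, with a median of -0.092. Snhg3 (-0.11) and Snhg1 (-0.100) were the lowest, and Snhg7 (0.19) and Snhg5 (0.097) the highest. The lowest limma adjusted p of any feature was 0.278, so that no gene of these lists passed the test.

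Most tested markers of red blood cells were lower in TiO2-H as well on the 75th percentile scale. Of 6 tested erythroid markers 4 (Hbb-bt, Hba-a1, Hbb-b2 and Alas2) had both TiO2-H values below both Sham values and 0 had both above. The median difference of the 6 was -0.24 (0.11 higher without scaling, and so still below 0, where the median of the 76 genes was 0.041), and the processed signals of the list summed to 97872 (male) and 93167 (female) in Sham and to 86817 (labelled male) and 86686 (labelled female) in TiO2-H. No array measured Hba-x well above background. The part of erythroid cells in the difference of the ribosomal protein genes was not tested. Neuron markers, which check the tissue, were well above background on all 4 arrays for 8 of 8, and the liver markers Alb and Apoa1 on none.

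**Figure D5:**
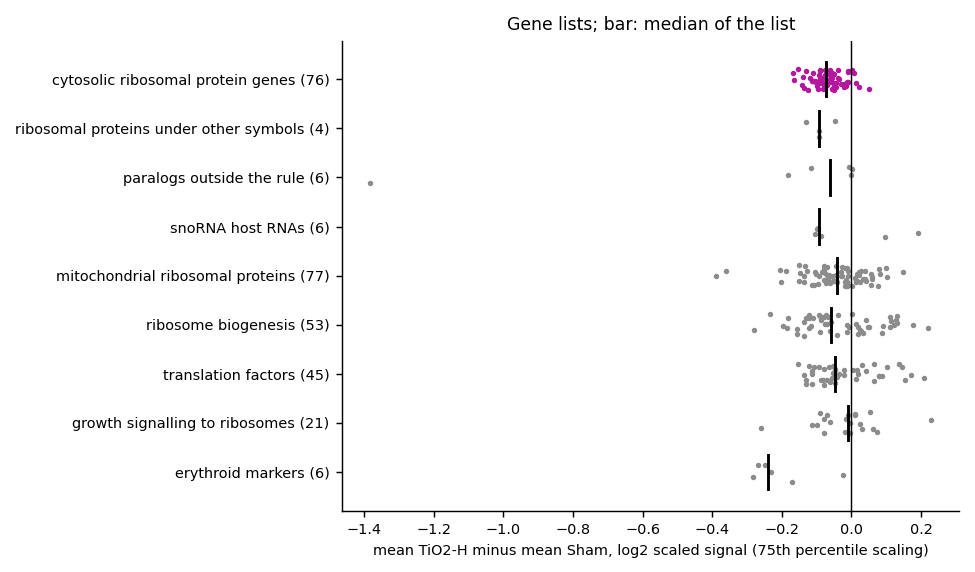
Mean TiO2-H minus mean Sham (log2 signal, 75th percentile scale) of each tested gene of 9 lists, with the number of genes beside the name and the median as a bar, which for the paralogs includes Rpl39l (-0.062). The 76 genes form the narrowest of the larger lists around -0.073, and without scaling every point lies 0.11 further right.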

How the data were processed

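The authors deposited the scanner output of the 4 arrays and a value table, all as intensity, made with Agilent Feature Extraction (version 10.10.1.1 by the file headers), which subtracts the local background. Both hold the same processed signal for all 59305 non-control spots, with no scaling between arrays. Of these spots 56.2% to 61.2% were well above background and 0 were saturated. The number of arrays limits the precision.

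Each array's log2 processed signals were centred on their own 75th percentile. Spots marked as outliers (138 to 181 an array) were left out, and repeat spots of a probe averaged. Accessions were named through the RefSeq gene table of GRCm38.p6, which held 94.3% of the RefSeq accessions. Features well above background on at least 1 array were tested, and values not well above background were raised to the lowest signal that was (23.3 to 31.7). limma 3.58.1 in R 4.3.3 compared 2 TiO2-H with 2 Sham arrays, without a sex term and with Benjamini-Hochberg adjustment over all features tested. Whether the pools differ beyond technical spread cannot be told from 1 array a group. Other steps used Python 3.11.15, numpy 2.4.6, pandas 2.3.3 and matplotlib 3.10.9. The fit was tested on simulated data with planted changes larger than any member difference. Whether it would find differences as small as those of the members was not tested. Features whose value is missing on an array were left out.

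The members and lists were chosen with earlier results of these data known. Named are the 5 members with the highest and the 5 with the lowest mean difference, members with a role of their own (stalk, Mdm2 binding, catalytic centre, kinase substrate, X-linked and disease genes), the 3 with the widest probe gap, and the 2 highest and 2 lowest genes of each list. Some genes that this rule names are not reported here. The lists are ribosomal proteins under other symbols, paralogs, translation factors, ribosome biogenesis, growth signalling, mitochondrial ribosomal proteins, small nucleolar RNA hosts and cell type markers. Alternatives were the scaling, the background correction (normexp with an offset of 50 on median signals, since the files hold no mean signal of a spot), the filter, the choice of probe, the threshold, the pairing of arrays and each array left out. Scaling to spike-in controls or to the median was added after the data were seen. Protein sequences were not used here.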

Additional observations from a re-analysis of the deposited data

Results flagged for a closer look

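In 15 of the 76 genes the labelled male and labelled female differences (TiO2-H minus Sham, log2, 75th percentile scale) had opposite signs, and 14 are given here. Each rests on 1 array a side, and whether the 2 differences differ was not tested. Each also pairs arrays by sex labels that the sex probes of the TiO2-H arrays went against. An opposite sign here therefore need not be a difference between the sexes. Signs with the arrays paired across the labels were not counted. The female-labelled minus the male-labelled difference was 0.24 for Rps4x, 0.16 for Rpl30, 0.16 for Rps27a, 0.14 for Rps24 and 0.099 for Rpl21. It was 0.092 for Rpl7, 0.090 for Rps23, 0.076 for Rpl32, 0.064 for Rpl10, 0.061 for Rpl23a and 0.034 for Rplp2. In 3 genes the female-labelled difference was the lower, at -0.20 for Rpl7a, -0.12 for Rps13 and -0.029 for Rpl22. In Rps4x and Rpl7a the 2 Sham arrays themselves differed by -0.20 and 0.20 (female minus male). The number of genes with opposite signs was 30 without scaling, 22 after quantile normalization, 29 after cyclic loess and 34 with spike-in scaling. Of all features 32.7% had opposite signs on the 75th percentile scale, and 25.0%, 32.0%, 33.6% and 36.2% under these 4 settings.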

How the results depend on the processing

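Of the 154 values recomputed under other settings, 137 were close to the value given, which for a count means within 1.5 times and for a median the same sign and a move under the SD of the medians of the 2 labels. They include the 42 genes without overlap when no scaling was used, of which 39 lay above and 3 below, and the labelled female median of -0.022 after cyclic loess. They also include values that could not move. The deposited table held the same signals, no member was lost to a filter, and 0 member probes were marked as outliers. Member medians and counts were thus fixed under those settings and when every identifier was counted. The 2-fold count was fixed by the 1.5-fold count. Without scaling, the member median turned to 0.0043 (labelled male), 0.079 (labelled female) and 0.041 (mean of TiO2-H minus mean of Sham). Quantile normalization brought these to -0.031, -0.019 and -0.025, and cyclic loess brought the labelled male and the mean values to -0.032 and -0.028. The Sham female minus Sham male median turned to 0.00083 and 0.00079 under the same 2 settings. The genes whose groups did not overlap, 61 in either direction, numbered 39 after quantile normalization, 40 after cyclic loess and 31 with spike-in scaling, where 55.5%, 54.6% and 48.0% of all features did not overlap. Spike-in scaling also moved the labelled female median to -0.0037 and the Sham median to -0.098. When every probe was counted, 126 of 164 member probes did not overlap, against 55.2% of all 24245 probes tested, and 1 member probe passed the threshold under the male label. The cause of the scaling differences was not tested. Leaving out each array in turn gave a median mean difference of -0.083 to -0.057, 64 to 73 genes without overlap (76.2% to 79.5% of all features, since 1 value against 2 overlaps less often), and 0 limma calls among members and among all features. With 1 array left on a side, its spread is taken from the other. Under the fold thresholds of 2 and 1.2, and with arrays paired across the sex labels, 0 members passed. Paired across the labels, with the scaling unchanged, the 2 member medians were -0.070 and -0.074. As labelled they were -0.094 (labelled male) and -0.052 (labelled female), and so lay further apart. With sex as labelled as a term, which pairs a Sham with a TiO2-H array, or with sex crossed within TiO2-H, limma again called 0 members and 0 features.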

Other observations

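The cell type markers gave these medians of the mean difference (TiO2-H minus Sham, log2, 75th percentile scale, each 0.11 higher without scaling). They were 0.13 for 8 neuron markers, 0.054 for 7 of radial glia and astrocytes, 0.081 for 6 of the oligodendrocyte lineage, 0.15 for 4 of endothelium, 0.15 for 5 of microglia, 0.060 for 8 tested of dividing cells and -0.037 for 4 of choroid plexus. The scaled Sham female minus Sham male medians, in the same order, were 0.034, -0.090, 0.00055, 0.078, -0.067, -0.11 and -0.061. For radial glia and astrocytes, dividing cells and choroid plexus these were larger in size than the median difference between TiO2-H and Sham. The choroid plexus median was -0.083 under the male and 0.021 under the female label. Of the muscle markers Acta1 and Myh3 were well above background on all 4 arrays, with mean differences of -0.022 and 0.25. The difference of Myh3 was -0.056 under the male and 0.55 under the female label. Its Sham arrays differed by -0.40 (female minus male). Of the pituitary markers, Pomc had processed signals of 572, 570, 956 and 590 and Gh 11.2, 6.44, 301 and 4.76 (Sham male, Sham female, labelled TiO2-H male, labelled TiO2-H female), so that the array labelled TiO2-H male alone stood apart in both, and Gh was well above background on that array alone. Without that array the median of the 76 genes was -0.061, beside -0.073 with it. No gene of these lists passed limma. The probes of the ribosomal protein genes held 7.63% and 7.60% of the summed non-control signal in Sham (male, then female), and 7.36% and 7.42% in TiO2-H (labelled male, then labelled female).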
